A study of Saccharomyces cerevisiae with 12 samples.

Results

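The RNAs described here are those encoded by the mitochondrial genome of Saccharomyces cerevisiae, and their levels were followed in 6 yeast strains. They were chosen by identifier, as every entry of the gene table whose name starts with Q0 together with 15S_rRNA, 21S_rRNA and RPM1. This gave 31 members of the 7126 identifiers in the table. The R64 annotation (the sacCer3 build) places 22 of them on the mitochondrial chromosome, and the other 9 identifiers have no annotation there and are given no role.

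The study relates the Set1 complex, which methylates lysine 4 of histone H3, and the demethylase Jhd2 to that mark. Its strains were a deletion of SDC1 (Sdc1_KO), a deletion of the DPY30 motif within SDC1 (Dpy30_KO), an SDC1 point mutant (Sdc1_mut), a deletion of JHD2 (Jhd2_KO), the point mutant that also lacks JHD2 (Sdc1_mut_Jhd2_KO) and the wild type (WT). Per the labels all 6 are MGD353-13D, all were harvested at mid log phase in YPD, a rich medium, and ribosomal RNA was depleted before directional libraries were made. Each strain had 2 libraries, and no label says that the 2 came from separate cultures or transformants, so p-values measure only the spread between those libraries.

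The mitochondrial genome of yeast encodes subunits of the respiratory chain and of the ATP synthase, a protein of the mitochondrial ribosome, the 2 ribosomal RNAs, tRNAs and the RNA of mitochondrial RNase P. A single-subunit polymerase, Rpo41, transcribes it with the factor Mtf1 from a short promoter of 9 bases, and long primary transcripts are then cut and spliced. Several introns carry reading frames of their own for maturases, which help splicing, or for homing endonucleases. Everything else that mitochondria need, including the machinery that copies, transcribes and translates this genome, is encoded in the nucleus. Yeast can grow by fermentation without mitochondrial gene expression.

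The promoter sequence is shown because each of the RNAs that made up most of the fragments has it close upstream. RNAs at low levels, 15S rRNA and RPM1, have it close upstream as well, and a relation of the motif to level was not tested. Each line gives the 9-base motif ATATAAGTA in capitals after the 30 bases before it, read 5′ to 3′ on the plus strand of the RefSeq R64 mitochondrial genome.
21S rRNA, chrM:57970-58008: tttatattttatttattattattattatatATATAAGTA
15S rRNA, chrM:6432-6470: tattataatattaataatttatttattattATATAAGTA
COX1, chrM:13319-13357: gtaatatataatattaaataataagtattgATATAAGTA
OLI1, chrM:46119-46157: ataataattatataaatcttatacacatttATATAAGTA
COB, chrM:34848-34886: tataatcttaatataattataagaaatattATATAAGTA
RPM1, chrM:84984-85022: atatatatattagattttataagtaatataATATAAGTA
The motif ended 0 bases before the annotated start of the 21S rRNA, 75 bases before the 15S rRNA, 460 before the COX1 frame and 565 before the OLI1 frame, with no gene in between. It ended 272 bases before RPM1 and 1653 bases before the COB frame, with 1 tRNA gene in between in each case. The nearest plus-strand motif lay 8365 bases before COX2 and 13820 bases before COX3. The mitochondrial genome of 85779 bases held 11 exact matches on the plus strand and 3 on the minus strand. A match on either strand was found within 1000 bases upstream of 45.5% of 22 mitochondrial genes other than tRNA genes, of 17.4% of 23 mitochondrial tRNA genes and of 2.84% of 6407 nuclear genes. Among the 22, COX1 and the 5 intron frames that overlap it share a start, as do COB and its 3. Each shared window was counted once per frame, so the 45.5% is not a share of separate windows. The base composition of the genomes differs, with 17.1% G and C in mitochondrial and 38.3% in nuclear DNA, and a match in these windows is a description only.

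Several values bear on all results. The libraries held 8652878 to 26041718 fragments. SDC1 had 0 fragments in both Sdc1_KO libraries, 203 and 162 in Dpy30_KO, 414 and 560 in Sdc1_mut, 183 and 292 in Jhd2_KO, 648 and 629 in Sdc1_mut_Jhd2_KO, and 638 and 610 in WT. JHD2 had 0 fragments in the 4 libraries that should lack it and 104 to 261 in the others. These counts of SDC1 and JHD2 are not scaled to library size, so they give no comparison of level between strains. An SDC1 level does not check the labels of the motif deletion or of the point mutant. The 2 WT libraries differed among these RNAs. Their median absolute log2 difference was 0.65 over the members tested and 0.11 over all genes tested, against 0.33 and 0.22 in Sdc1_KO. Such a difference does not show which WT library is the unusual one. The library number in the label of WT replicate 1 lies outside the run of numbers of the other 11 libraries. No label calls that difference in number a batch, and whether it is one was not tested. Values without WT replicate 1 stand beside the results against WT. For the summed loci, the ratios, the bounds and the nuclear genes that choice was made after seeing the data.

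The 31 members together were present in Sdc1_KO, Jhd2_KO and WT and were nearly without fragments in Dpy30_KO, Sdc1_mut and Sdc1_mut_Jhd2_KO. They took 0.391% and 0.274% of the fragments in the Sdc1_KO libraries, 0.338% and 0.310% in Jhd2_KO, and 0.135% and 0.261% in WT. These were 53234 and 48224 fragments in Sdc1_KO, 29213 and 37870 in Jhd2_KO, and 35130 and 62790 in WT. In the other strains the whole set of 31 RNAs had 17 and 8 fragments in Dpy30_KO, 9 and 2 in Sdc1_mut, and 9 and 16 in Sdc1_mut_Jhd2_KO. No library of these 3 strains came near any library of the other 3. Fewer cells that hold these RNAs and less of the RNA in each cell cannot be told apart in such bulk libraries.

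Pooled over both libraries, the level was 0.976 fragments per 1000000 of the library in Dpy30_KO (95% exact Poisson interval 0.631 to 1.44), 0.432 in Sdc1_mut (0.216 to 0.774) and 0.883 in Sdc1_mut_Jhd2_KO (0.572 to 1.30), against 1954 in WT. WT was thus 2003 times Dpy30_KO (1357 to 3095), 4520 times Sdc1_mut (2526 to 9055) and 2212 times Sdc1_mut_Jhd2_KO (1499 to 3418). Without WT replicate 1, the level in WT was 2674 times Dpy30_KO, 6035 times Sdc1_mut and 2953 times Sdc1_mut_Jhd2_KO. These intervals cover counting error only, since PCR copies were not marked by molecular identifiers. With 2 libraries against 2, an exact two-sided permutation test cannot give less than p = 0.33, which is the value for each of the 5 strains against WT.

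**Figure D1:**
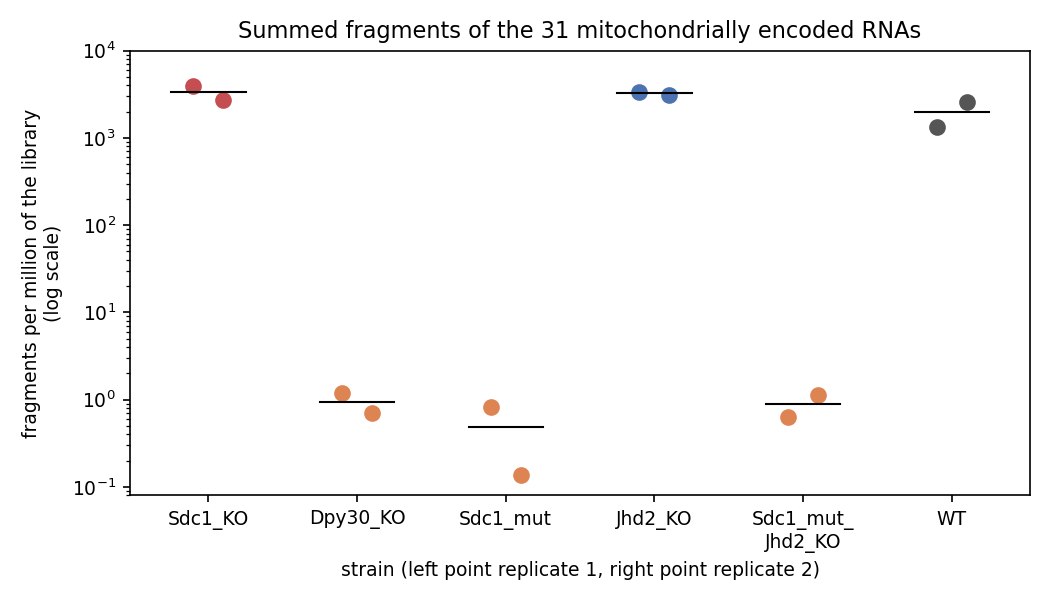
Summed level of the 31 mitochondrially encoded RNAs in each library, in fragments per 1000000 of the library, on a log scale, by strain; points are the 2 libraries and bars their mean. Libraries of Sdc1_KO, Jhd2_KO and WT lie between 1349 and 3915, and those of the other 3 strains between 0.137 and 1.20.

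The larger ribosomal RNA, 21S, is the core of the large subunit of the mitochondrial ribosome, and its single intron holds the reading frame SCEI for the homing endonuclease I-SceI. CPM below are counts per 1000000 after TMM scaling of the libraries. 21S rRNA had 692 and 691 CPM in Sdc1_KO, 714 and 699 in Jhd2_KO, and 408 and 538 in WT. Both mutants lay above both WT libraries. In Sdc1_KO the 21S rRNA rose by a log2 fold change of 0.55 ± 0.16 (standard error; edgeR adjusted p = 0.012). In Jhd2_KO the log2 fold change was 0.58 ± 0.16 and did not pass the test (edgeR adjusted p = 0.085). SCEI had 225 and 242 CPM in Sdc1_KO, 246 and 238 in Jhd2_KO, and 89.2 and 202 in WT, with no overlap between mutants and WT. It rose in Sdc1_KO (log2 fold change 0.68 ± 0.26, edgeR adjusted p = 0.04). In Jhd2_KO its log2 fold change was 0.73 ± 0.26 (edgeR adjusted p = 0.16). Neither RNA was called in either strain without WT replicate 1. The log2 fold changes were then 0.36 in Sdc1_KO and 0.39 in Jhd2_KO for 21S rRNA, and 0.21 in Sdc1_KO and 0.26 in Jhd2_KO for SCEI.

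The 15S rRNA, the RNA of the small subunit of the mitochondrial ribosome, followed another order. It had 8.47 and 8.31 CPM in Sdc1_KO, 5.43 and 3.89 in Jhd2_KO, and 6.35 and 4.90 in WT. Sdc1_KO lay above all 4 other libraries, and Jhd2_KO overlapped WT. Against Jhd2_KO it was higher in Sdc1_KO by a log2 fold change of 0.87 ± 0.28 (edgeR adjusted p = 0.027), the only member called in that comparison. The values against WT were 0.57 ± 0.25 for Sdc1_KO (edgeR adjusted p = 0.082) and -0.29 ± 0.28 for Jhd2_KO (edgeR adjusted p = 0.65), and without WT replicate 1 they were 0.77 for Sdc1_KO and -0.09 for Jhd2_KO, neither called. Ribosomal RNA was depleted before sequencing, so the level of either rRNA is what the depletion left, and its part in these differences was not tested.

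COX1 encodes the catalytic subunit of cytochrome c oxidase, and its introns hold the frames AI1 to AI5-alpha, which are continuous with the exons before them, and AI5-beta. The COX1 frame shares 60.6% of its exon bases with other members, so the table's division of fragments among COX1, AI1, AI2, AI3, AI4 and AI5-alpha is uncertain. COX1 had 607 and 473 CPM in Sdc1_KO, 551 and 512 in Jhd2_KO, and 208 and 443 in WT. Both mutants lay above both WT libraries, although Sdc1_KO replicate 2 and WT replicate 2 were close. COX1 rose in Sdc1_KO (log2 fold change 0.73 ± 0.27, edgeR adjusted p = 0.038), and its log2 fold change in Jhd2_KO was 0.71 ± 0.27 (edgeR adjusted p = 0.20). AI2, known as a maturase and reverse transcriptase, had 695 and 511 CPM in Sdc1_KO, 658 and 631 in Jhd2_KO, and 263 and 488 in WT. AI4, a maturase and DNA endonuclease, had 228 and 188 CPM in Sdc1_KO, 215 and 207 in Jhd2_KO, and 77.4 and 161 in WT. In both frames WT replicate 1 was the lowest library.

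Of the 6 intron frames of COX1, 5 rose in Sdc1_KO, by log2 fold changes of 0.68 (AI2), 0.80 (AI4 and AI5-alpha), 0.89 (AI3) and 0.90 (AI5-beta), with edgeR adjusted p from 0.017 to 0.030. AI1, the maturase frame of the first intron, had 212 and 173 CPM in Sdc1_KO, 247 and 232 in Jhd2_KO, and 114 and 176 in WT. Its log2 fold change in Sdc1_KO was 0.41 ± 0.19, with overlapping groups (edgeR adjusted p = 0.095). In Jhd2_KO the 6 frames had log2 fold changes of 0.73 to 0.89 and none passed the test. None was called in Sdc1_KO without WT replicate 1, with log2 fold changes from 0.13 (AI1) to 0.49 (AI3). With the 7 frames of the locus summed to 1 row, a choice made after seeing the data, the locus rose by 0.70 ± 0.26 in Sdc1_KO (edgeR adjusted p = 0.041), against 0.77 ± 0.26 in Jhd2_KO (edgeR adjusted p = 0.16). The locus, without WT replicate 1, was at 0.30 ± 0.24 in Sdc1_KO (edgeR adjusted p = 0.36) and at 0.37 ± 0.24 in Jhd2_KO (edgeR adjusted p = 0.61).

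COX2 and COX3 encode the other 2 mitochondrial subunits of cytochrome c oxidase, and both were low throughout. COX2 had 2.80 and 0.89 CPM in Sdc1_KO, 2.54 and 1.66 in Jhd2_KO, and 0.87 and 1.55 in WT. COX3 had 1.89 and 1.19 CPM in Sdc1_KO, 0.12 and 0.75 in Jhd2_KO, and 0.72 and 1.42 in WT. COX3 rested on 1 to 34 fragments a library and COX2 on 15 to 43, and neither passed the test in any of the 3 comparisons. The log2 fold changes in Sdc1_KO were 0.60 ± 0.55 for COX2 and 0.52 ± 0.53 for COX3, and in Jhd2_KO 0.77 ± 0.58 and -1.15 ± 0.73, against WT in each case. Leaving out WT replicate 1 gave 0.23 for COX2 and 0.10 for COX3 in Sdc1_KO, and 0.41 for COX2 and -1.57 for COX3 in Jhd2_KO. The frame Q0255, which follows COX2 and overlaps its end, had 6 to 18 fragments a library and was not called.

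COB encodes cytochrome b of the bc1 complex, and its introns hold the frames BI2, BI3 and BI4, of which BI4 is the maturase that splicing of a COX1 intron also needs. COB had 6.26 and 3.38 CPM in Sdc1_KO, 2.54 and 2.98 in Jhd2_KO, and 5.55 and 3.39 in WT. Its 2 WT libraries stood in the reverse of the order seen for COX1, with replicate 1 the higher. The log2 fold change was 0.10 ± 0.35 in Sdc1_KO (edgeR adjusted p = 0.83) and -0.69 ± 0.40 in Jhd2_KO (edgeR adjusted p = 0.43). Summed over its 4 frames, the locus gave 0.11 in Sdc1_KO (edgeR adjusted p = 0.74) and -0.18 in Jhd2_KO (edgeR adjusted p = 0.77). COB was at 0.50 in Sdc1_KO and -0.29 in Jhd2_KO without WT replicate 1, and its locus at 0.41 in Sdc1_KO and 0.12 in Jhd2_KO, with none called. BI4 shares a stretch of 230 bases at 100% identity with the nuclear chromosomes, so fragments of that stretch can map to either. BI4 had 28.2 to 125 fragments a library in Sdc1_KO, Jhd2_KO and WT. It had 1 fragment over the 6 libraries of the strains nearly without these RNAs, and the source of its fragments was not tested.

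ATP6, ATP8 and OLI1 encode subunits of the membrane part of the ATP synthase, OLI1 the one that forms the rotating ring. ATP6 had 14.1 and 11.1 CPM in Sdc1_KO, 13.6 and 14.7 in Jhd2_KO, and 6.01 and 8.59 in WT. All mutant libraries lay above both WT libraries. ATP6 rose in Sdc1_KO (log2 fold change 0.79 ± 0.23, edgeR adjusted p = 0.017), and in Jhd2_KO its log2 fold change was 0.96 ± 0.23 (edgeR adjusted p = 0.076). ATP6 was at 0.55 in Sdc1_KO and 0.72 in Jhd2_KO without WT replicate 1, neither called. ATP8, a frame of 147 bases, had at most 1 fragment in a library and was not tested.

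OLI1 had the highest level per length of all members and the widest gap between replicates. Its frame is printed because it is the shortest and most G- and C-rich of the frames at high levels, with 231 bases and 33.3% G and C; capitals mark the start and stop codons.
OLI1, chrM:46723-46953, plus strand, R64: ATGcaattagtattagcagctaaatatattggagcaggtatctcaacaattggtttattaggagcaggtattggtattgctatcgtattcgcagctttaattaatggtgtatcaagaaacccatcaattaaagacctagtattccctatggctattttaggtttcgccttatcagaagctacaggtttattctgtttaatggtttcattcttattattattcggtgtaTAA
OLI1 had 527 and 362 CPM in Sdc1_KO, 487 and 369 in Jhd2_KO, and 71.9 and 435 in WT. WT replicate 2 lay within the range of the mutants, and WT replicate 1 lay far below all 5 other libraries. The log2 fold change was 0.81 ± 0.54 in Sdc1_KO (edgeR adjusted p = 0.24) and 0.75 ± 0.55 in Jhd2_KO (edgeR adjusted p = 0.53). Without WT replicate 1 the OLI1 values were 0.03 in Sdc1_KO and -0.03 in Jhd2_KO.

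VAR1 encodes a protein of the small subunit of the mitochondrial ribosome and lies downstream of OLI1, with 1 tRNA gene in between. It had 17.6 and 17.2 CPM in Sdc1_KO, 20.8 and 22.7 in Jhd2_KO, and 3.61 and 14.5 in WT. As for OLI1, WT replicate 1 was the lowest library by a wide margin. The log2 fold change was 0.95 ± 0.46 in Sdc1_KO (edgeR adjusted p = 0.11) and 1.28 ± 0.47 in Jhd2_KO (edgeR adjusted p = 0.20). RPM1, the RNA of mitochondrial RNase P, had 1.11 and 1.07 CPM in Sdc1_KO, 1.503 and 1.16 in Jhd2_KO, and 0.34 and 1.05 in WT. Its log2 fold change was 0.66 ± 0.55 in Sdc1_KO (edgeR adjusted p = 0.34) and 0.93 ± 0.58 in Jhd2_KO (edgeR adjusted p = 0.47). VAR1 was at 0.27 in Sdc1_KO and 0.59 in Jhd2_KO without WT replicate 1, and RPM1 at 0.05 in Sdc1_KO and 0.32 in Jhd2_KO, with none called.

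**Figure D2:**
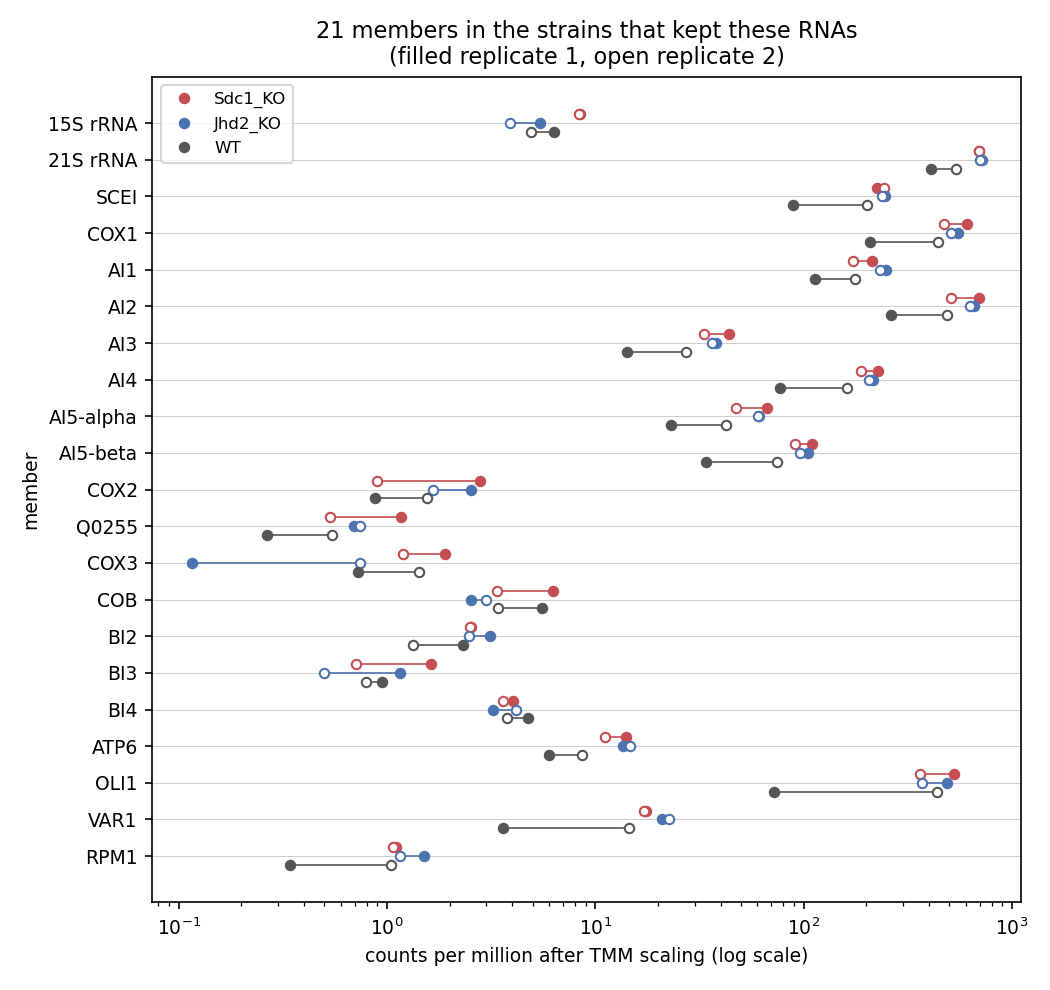
CPM after TMM scaling (log scale) of the 21 members tested, in the 2 libraries of Sdc1_KO, Jhd2_KO and WT; filled points are replicate 1 and open points replicate 2. WT replicate 1 is the lowest library for COX1, OLI1 and VAR1, and for COB it lies above WT replicate 2.

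Over the whole set, 21 of the 31 members passed the filter on low counts. In Sdc1_KO against WT, 9 members were higher at an edgeR adjusted p under 0.05, beside 28.0% of all 6361 genes tested that were called higher in that comparison. They were 21S rRNA, SCEI, COX1, ATP6 and the 5 intron frames above, so 6 of the 9 belong to the COX1 locus and partly share exon bases. ATP6 lies downstream of that locus, and its nearest plus-strand motif is the same one. The median log2 fold change of the 21 was 0.68, against 0.04 over all genes tested, and 20 of 21 values were positive. No member was called lower by edgeR, DESeq2 or limma. Without WT replicate 1 none of the 21 was called (4 had an unadjusted p under 0.05), their median was 0.36, and the calls over all genes were 2292 in place of 3208. The values without that library were 0.28 for COX1, 0.36 for 21S rRNA and 0.55 for ATP6. Without WT replicate 2 instead, the median of the 21 was 1.20. The size of the Sdc1_KO values thus depended on which WT library was kept, and each such fit rests on 1 WT library.

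In Jhd2_KO against WT, edgeR called 0 of the 21 members, beside 0.755% of all genes called higher and 1.63% called in either direction. The median log2 fold change was 0.75, against 0.00 over all genes tested, and 16 values were positive. Of the 21, 11 had an unadjusted p under 0.05 in edgeR. Counts at an unadjusted p, here and elsewhere, were not set beside the share of all genes. DESeq2 called 4 members higher, of 270 genes it called in all, and limma called none, of 42 genes in all. Leaving out 1 library changed the calls. Without WT replicate 1 the median was 0.39, with 0 members called by edgeR and 7 at an unadjusted p under 0.05. Without WT replicate 2 the median was 1.29 and edgeR called 7 members higher, of 15 genes called in all. Leaving out a library of Sdc1_KO, a strain outside this comparison that shares in the estimate of the spread, gave 10 members called higher without replicate 1 and 11 without replicate 2, among 704 and 672 genes called in place of 104. The comparisons of Sdc1_KO and of Jhd2_KO share both WT libraries, so a low WT library raises both sets of values.

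Set directly against each other, without WT, the 2 strains gave a median log2 fold change of -0.02 over the 21 members, Sdc1_KO over Jhd2_KO. Apart from the 15S rRNA, which was higher in Sdc1_KO, edgeR called none, beside 25.3% of all genes called higher and 22.1% called lower. COX3 had the largest difference, 1.67 ± 0.72, on 1 fragment in a Jhd2_KO library (edgeR adjusted p = 0.083). The COX1 value was 0.02 ± 0.26 and the OLI1 value 0.06 ± 0.54.

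**Figure D3:**
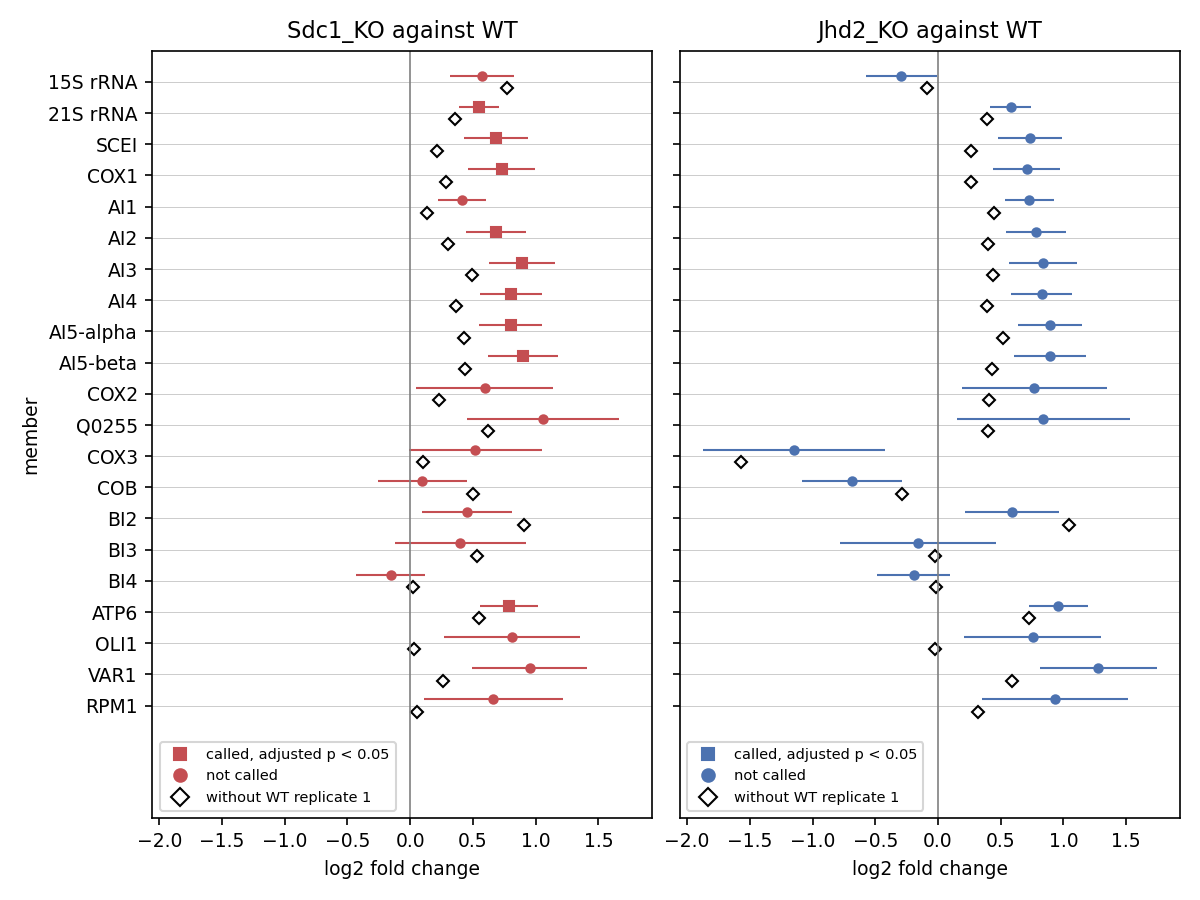
Log2 fold changes of the 21 members tested, for Sdc1_KO (left) and Jhd2_KO (right) against WT, with standard errors; squares passed an adjusted p under 0.05 and open diamonds are the values without WT replicate 1. The 9 squares are all in Sdc1_KO, and for OLI1 the diamonds are at 0.03 (left) and -0.03 (right).

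Within the mitochondrially encoded RNA, the COX1 locus took much the same share in the 6 libraries, and in each of the other shares given here WT replicate 1 was the library farthest from the rest. The 7 frames of the COX1 locus took 56.6% and 53.0% of these fragments in Sdc1_KO, 55.5% and 56.6% in Jhd2_KO, and 54.9% and 53.7% in WT. The 21S rRNA with SCEI took 26.4% and 32.6% in Sdc1_KO, 28.4% and 29.9% in Jhd2_KO, and 37.2% and 28.1% in WT. OLI1 and VAR1 took 15.7% and 13.3% in Sdc1_KO, 15.03% and 12.5% in Jhd2_KO, and 5.65% and 17.1% in WT. The COB locus took 0.42% and 0.36% in Sdc1_KO, 0.30% and 0.32% in Jhd2_KO, and 1.02% and 0.35% in WT. The 15S rRNA took 0.244% and 0.290% in Sdc1_KO, 0.161% and 0.124% in Jhd2_KO, and 0.475% and 0.186% in WT. With libraries scaled to the summed fragments of the members, edgeR called 0 of them in Sdc1_KO or in Jhd2_KO against WT. There were 0 and 3 at an unadjusted p under 0.05. Of all 6300 genes tested under that scaling, 241 were called in Sdc1_KO and 1 in Jhd2_KO. The scaling removes a shift shared by the members, so it cannot show one.

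**Figure D4:**
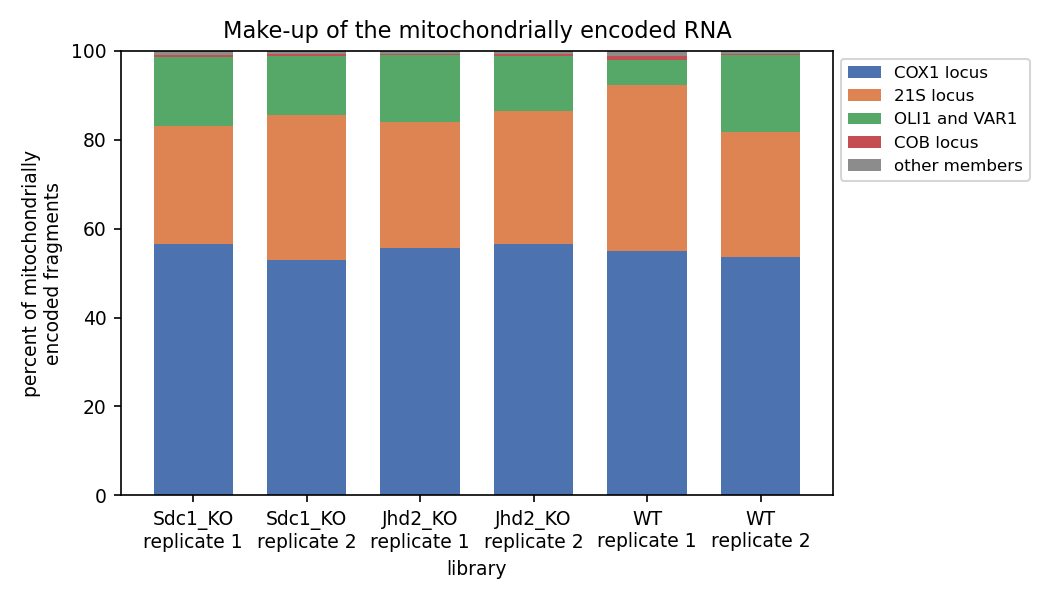
Share of mitochondrially encoded fragments (percent) in each library of Sdc1_KO, Jhd2_KO and WT, stacked by locus. The COX1 locus takes 53.0% to 56.6% in every library, and OLI1 with VAR1 takes 5.65% in WT replicate 1 against 12.5% to 17.1% in the other 5.

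Levels between members can be compared only per length, for which the authors' FPKM (fragments scaled by length and library size) were used. The median over the 6 libraries was 5347 FPKM for OLI1 (1123 to 7318), 852 for SCEI (332 to 869), 377 for 21S rRNA (232 to 406) and 377 for COX1 (185 to 483). The ranges of SCEI, 21S rRNA and COX1 overlapped, so their order is not fixed, while OLI1 was above each of them in every library. VAR1 had 72.4 FPKM (12.4 to 89.9) and ATP6 38.7 (20.9 to 46.8), also with overlapping ranges. RPM1 at 8.89, 15S rRNA at 8.01, COX2 at 5.03, COB at 4.34 and COX3 at 2.33 FPKM were at the low end. The FPKM exceeded plain fragments per kilobase of annotated exon at equal library size by factors that differed between members, from 1.26 for COX1 to 4.77 for VAR1, with 3.10 for OLI1 and 3.91 for RPM1. On the plain scale OLI1 was still the highest, at 1724, followed by SCEI at 330, COX1 at 298, AI2 at 217 and 21S rRNA at 205. That scale turned the order of VAR1 (15.2) and ATP6 (15.6), and of RPM1 (2.27) and 15S rRNA (3.59), so neither order is fixed. The 24 identifiers of mitochondrial tRNAs held 0 fragments in every library, which says nothing of tRNA levels in libraries of this kind.

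The residual fragments in Dpy30_KO, Sdc1_mut and Sdc1_mut_Jhd2_KO fell on few members. The 8 members with at least 3 fragments over these 6 libraries, after rounding, were 21S rRNA, COX1, AI1, 15S rRNA, AI2, SCEI, AI4 and OLI1. Apart from the 15S rRNA, these were also the members that held most of the fragments in Sdc1_KO, Jhd2_KO and WT. 21S rRNA had 5 and 2 fragments in Dpy30_KO, 2 and 0 in Sdc1_mut, and 4 and 10 in Sdc1_mut_Jhd2_KO. COX1 had 7 and 2 fragments in Dpy30_KO, 0 and 0 in Sdc1_mut, and 0 and 1 in Sdc1_mut_Jhd2_KO. The 15S rRNA had fragments in Sdc1_mut_Jhd2_KO alone of these strains, 1 and 4. AI1 had 4 and 1 fragments in Dpy30_KO, 3 and 0 in Sdc1_mut, and none in Sdc1_mut_Jhd2_KO. The remaining 4 had 3 to 4 fragments each over the 6 libraries. At 95% identity or more, the longest match to the nuclear chromosomes was 65 bases for 21S rRNA, 58 for 15S rRNA and 39 for COX1. AI1, AI2, AI4, SCEI and OLI1 had no such match. The source of the residual fragments was not tested, and counts of this size allow no order among the strains.

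Members with 0 fragments in both libraries of a strain were given the lower bound that 3 fragments per library would set. On that bound COX1 was at least 1333-fold lower in Sdc1_mut than in WT, and OLI1 at least 1188-fold lower in Sdc1_mut_Jhd2_KO. AI4 was at least 497-fold lower in Dpy30_KO. The bounds of COX1 and AI4 rest on the table's uncertain division of fragments among overlapping frames. Summed, the 7 frames of the COX1 locus had 6 and 1 fragments in Sdc1_mut, and 12 and 3 in Dpy30_KO. For rare RNAs the same bound shows less: ATP6 was at least 30.4-fold, COX2 at least 5.06-fold and RPM1 at least 2.90-fold lower in Dpy30_KO. Set against WT replicate 2 alone, the bounds were 1814-fold for COX1, 2040-fold for OLI1, 671-fold for AI4, 35.8-fold for ATP6, 6.46-fold for COX2 and 4.37-fold for RPM1 in the same strains. All 21 members tested were called lower in each of these strains by edgeR, beside 25.1% of all genes in Dpy30_KO, 24.7% in Sdc1_mut and 30.1% in Sdc1_mut_Jhd2_KO. They had passed the filter through the strains in which they were high, so that count is a description and supports nothing further. Whether deleting JHD2 acted on the members differently in Sdc1_mut and in WT was not tested, since both strains with the point mutation had next to no fragments of them.

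The nuclear genes that keep, transcribe, process and translate the mitochondrial genome were described as a list of 70 genes, all tested, and chosen with earlier results of these data known. In Sdc1_KO 14 rose and 25 fell against WT, beside 50.4% of all genes called. In Dpy30_KO 8 rose and 23 fell (52.4% of all genes), in Sdc1_mut 8 and 23 (52.5%), and in Sdc1_mut_Jhd2_KO 8 and 37 (59.2%). Jhd2_KO had 0 called by edgeR, beside 1.63% of all genes, with 13 at an unadjusted p under 0.05 and 2 called by DESeq2. In either direction, the shares of the list called were 55.7% in Sdc1_KO, 44.3% in Dpy30_KO, 44.3% in Sdc1_mut and 64.3% in Sdc1_mut_Jhd2_KO. By direction, more of the list fell than rose in each of these strains. Of all genes, 28.0% were called higher and 22.4% lower in Sdc1_KO. Called lower were 25.1% of all genes in Dpy30_KO, 24.7% in Sdc1_mut and 30.1% in Sdc1_mut_Jhd2_KO. The lean of the list to falls was not tested against all genes. The effect of deleting JHD2 in Sdc1_mut against that in WT, an interaction term chosen after seeing the data, was called by edgeR for 14 of the 70, beside 20.4% of all genes.

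RPO41, the mitochondrial RNA polymerase, fell in Sdc1_KO by 0.56 ± 0.10 on the log2 scale (97.9 ± 10.9 CPM against 144 ± 7.77 in WT, SD, n = 2 each, edgeR adjusted p = 0.00057), a strain that kept these RNAs. In the strains nearly without them it was at -0.04 ± 0.10 in Dpy30_KO and -0.18 ± 0.10 in Sdc1_mut, neither called, and it fell by 0.24 ± 0.10 in Sdc1_mut_Jhd2_KO (edgeR adjusted p = 0.048). Its partner MTF1 was called lower only in Sdc1_mut_Jhd2_KO among the 5 strains, by 0.47 ± 0.14 (edgeR adjusted p = 0.013), and that strain was not tested directly against the other mutants. ABF2, which packs mitochondrial DNA, likewise was called only there, at -0.70 ± 0.13 (edgeR adjusted p = 0.00066), and was at -0.28 in Sdc1_KO without being called. MIP1, the mitochondrial DNA polymerase, rose in Sdc1_mut_Jhd2_KO by 0.35 ± 0.08 (edgeR adjusted p = 0.003) and was not called in the other 4 strains, at -0.12 to 0.08. In Jhd2_KO these 4 genes were at -0.12 to -0.02. By the interaction term, the effect of deleting JHD2 differed between Sdc1_mut and WT for MIP1 (0.42, edgeR adjusted p = 0.026). The term was not called for MTF1 (-0.40, edgeR adjusted p = 0.19), ABF2 (-0.26, edgeR adjusted p = 0.35) or RPO41 (-0.001). With WT replicate 1 left out, RPO41 in Sdc1_mut_Jhd2_KO was at -0.19 (edgeR adjusted p = 0.22) and MTF1 there at -0.39 (edgeR adjusted p = 0.087), no longer called, while RPO41 in Sdc1_KO was at -0.50 (edgeR adjusted p = 0.0086).

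Among the largest changes on the list were those of TRZ1, RPM2 and MEF2. TRZ1, which cuts the 3′ ends of tRNA precursors, was the largest rise in each of the 4 strains with a changed SDC1, at 1.43 ± 0.12 in Sdc1_KO, 1.40 ± 0.12 in Dpy30_KO, 1.34 ± 0.12 in Sdc1_mut and 1.19 ± 0.12 in Sdc1_mut_Jhd2_KO. RPM2, the protein subunit of mitochondrial RNase P, fell in all 4, with log2 fold changes of -1.05 ± 0.15 in Sdc1_KO, -1.65 ± 0.16 in Dpy30_KO, -1.80 ± 0.16 in Sdc1_mut and -1.73 ± 0.16 in Sdc1_mut_Jhd2_KO. MEF2, which acts in recycling of mitochondrial ribosomes, fell, with log2 fold changes of -1.89 ± 0.12 in Dpy30_KO, -1.97 ± 0.12 in Sdc1_mut and -1.68 ± 0.11 in Sdc1_mut_Jhd2_KO. All of these passed edgeR at adjusted p from 1.2e-07 to 0.00016, and the 4 comparisons share the WT libraries. All of them were also called without WT replicate 1.

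Other members of the list among the 3 largest changes differed by strain. In Sdc1_KO they were rises of RIM1 (1.01 ± 0.10), the single-stranded DNA-binding protein of mitochondrial DNA, and CBP2 (0.99 ± 0.16), a splicing factor of a COB intron, and falls of CBP6 (-1.16 ± 0.15), which acts on translation of COB mRNA, and MTF2 (-0.77 ± 0.14), which links transcription to RNA handling. CCE1, an endonuclease of mitochondrial DNA junctions, fell, with -0.85 ± 0.11 in Dpy30_KO and -0.80 ± 0.11 in Sdc1_mut. AEP3, which stabilises the ATP6 and ATP8 message, rose by 0.85 ± 0.13 in Dpy30_KO, 0.81 ± 0.13 in Sdc1_mut and 1.09 ± 0.13 in Sdc1_mut_Jhd2_KO. PET309, a translation factor of COX1, rose by 0.58 ± 0.12 in Dpy30_KO, CBP2 by 0.56 ± 0.17 in Sdc1_mut and PET122, a translation factor of COX3, by 0.76 ± 0.22 in Sdc1_mut_Jhd2_KO, where CBP3, a partner of CBP6, fell by 1.18 ± 0.13. Each passed edgeR at an adjusted p of 0.013 or less. Each was still called without WT replicate 1 apart from CBP2 in Sdc1_mut, at 0.45 (edgeR adjusted p = 0.10).

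By role, 7 of the 9 general translation factors fell in Sdc1_KO, 6 in Dpy30_KO, 7 in Sdc1_mut and 7 in Sdc1_mut_Jhd2_KO, and 1 rose in Dpy30_KO. Of all genes, 22.4% were called lower in Sdc1_KO, 25.1% in Dpy30_KO, 24.7% in Sdc1_mut and 30.1% in Sdc1_mut_Jhd2_KO. Called higher were 28.0% in Sdc1_KO. In either direction 52.4% were called in Dpy30_KO, 52.5% in Sdc1_mut and 59.2% in Sdc1_mut_Jhd2_KO, the calls that were not falls being rises. The median log2 fold changes of these factors were -0.47 in Sdc1_KO, -0.54 in Dpy30_KO, -0.49 in Sdc1_mut and -0.65 in Sdc1_mut_Jhd2_KO. Of the 4 transcription genes none rose, and 2 fell in Sdc1_KO, 1 in Dpy30_KO, 1 in Sdc1_mut and 3 in Sdc1_mut_Jhd2_KO. The 17 genes of RNA processing, splicing, modification and decay gave 6 rises and 3 falls in Sdc1_KO, 3 and 3 in Dpy30_KO, 4 and 3 in Sdc1_mut, and 2 and 3 in Sdc1_mut_Jhd2_KO. The 19 stability and translation factors of single messages gave 2 rises and 6 falls in Sdc1_KO, 2 and 7 in Dpy30_KO, 2 and 7 in Sdc1_mut, and 4 and 10 in Sdc1_mut_Jhd2_KO. The 9 genes of mitochondrial DNA maintenance gave 4 rises and 2 falls in Sdc1_KO, 0 and 1 in Dpy30_KO, 0 and 1 in Sdc1_mut, and 1 and 6 in Sdc1_mut_Jhd2_KO. The 12 mitochondrial aminoacyl-tRNA synthetases gave 2 rises and 5 falls in Sdc1_KO, 2 and 5 in Dpy30_KO, 2 and 4 in Sdc1_mut, and 1 and 8 in Sdc1_mut_Jhd2_KO. Differences between roles were not tested. Without WT replicate 1 the count of the whole list called in Sdc1_KO was 24 in place of 39, and without WT replicate 2 the count in Sdc1_mut was 20 in place of 31.

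**Figure D5:**
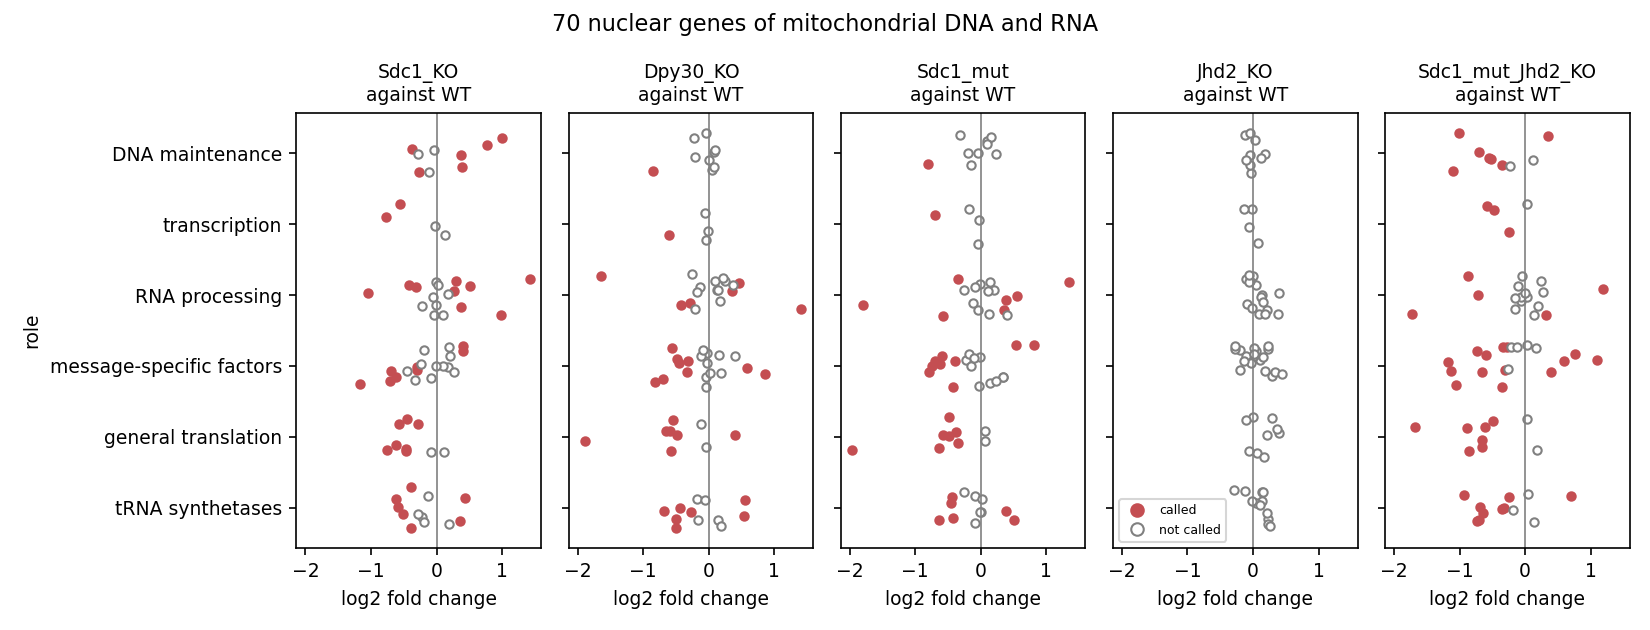
Log2 fold changes against WT of the 70 nuclear genes of mitochondrial DNA and RNA, by role, in the 5 mutant strains; each point is a gene, and filled points passed an adjusted p under 0.05. Jhd2_KO has no filled point, and TRZ1 is the point furthest to the right in the 4 other panels.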

How the data were processed

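Gene expression was measured in 12 libraries, 2 for each of 6 strains. The authors deposited a Cuffdiff gene table with expected counts of fragments before scaling and with FPKM; per the submitters' processing notes bcl2fastq 2.17.1.14, TopHat and Cufflinks were used with sacCer3. Of the deposited values 97.8% were exactly whole; the annotation, the strand setting and how multiply mapped reads were counted are not given in the sources used here. Expected counts were rounded, 14 identifiers marked in the table as having too much data were left out, and edgeR 4.0.16 (R 4.3.3, TMM scaling, default filter, 1 quasi-likelihood fit of 12 libraries) tested 6361 genes, with Benjamini-Hochberg adjustment over all of them and calls at 0.05. Where both libraries held 0, bounds assume 3 fragments per library.

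The members, the nuclear list and the tests were chosen with earlier results of these data known. Named in full were the 8 mRNA genes, both rRNAs and RPM1, then other members called (at most 6 a comparison), members with at least 3 residual fragments, and of the nuclear list the 3 largest called rises and falls with RPO41, MTF1, ABF2 and MIP1; BI4 and Q0255 were named after their values were seen. Results were recomputed with DESeq2 1.42.0, RLE scaling, a replicate block, no filter, only the groups compared, limma 3.58.1 on log2(FPKM + 1), each library left out, and scaling to the members' summed fragments. Nuclear copies were searched with blastn 2.17.0 at 95% identity or more. The fit was tested on simulated data.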

Additional observations from a re-analysis of the deposited data

Results flagged for a closer look

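The effect of deleting JHD2 was compared between the Sdc1_mut and the WT background by an interaction term in edgeR, a test chosen after seeing the data. It was not applied to the mitochondrially encoded members, which had next to no fragments in the Sdc1_mut background. Of the 70 nuclear genes 14 were called, 1 with a higher and 13 with a lower effect in Sdc1_mut, beside 20.4% of all genes. The share of the list called was thus close to that of all genes. The split by direction was not set beside that of all genes. Differences are log2 fold changes in Sdc1_mut minus those in WT, and each gene listed differed between the backgrounds at an edgeR adjusted p of 0.049 or less. MIP1 differed by 0.42. Genes of DNA maintenance differed by -1.001 (MGM101), -0.65 (MHR1), -0.58 (RIM1) and -0.41 (PIF1). Genes of RNA processing differed by -0.85 (MSS116) and -0.69 (MSS18). Translation and message factors differed by -0.56 (TUF1), -0.48 (PET54), -0.47 (ATP25) and -0.43 (MEF1). Aminoacyl-tRNA synthetases differed by -0.93 (MSE1), -0.72 (MST1) and -0.47 (MSF1).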

How the results depend on the processing

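In the 3 strains nearly without these RNAs, the counts of members called lower stayed within 1.5 times of 21 under the alternatives run, apart from summing the COX1 and COB frames to 1 row each, which left 12 rows to test, all called lower. The 9 members called higher in Sdc1_KO against WT became 5 with only the compared groups in the fit, 5 in DESeq2 and 0 when scaled to the members' summed fragments (a scaling that shifts the median of all genes to -0.79 in Sdc1_KO and -0.88 in Jhd2_KO), and 0 to 12 with 1 library left out, 0 being without WT replicate 1. The 0 in Jhd2_KO became 4 in DESeq2, which called 270 of all genes in place of 104, and 0 to 11 with 1 library left out, 7 without WT replicate 2 (15 of all genes called), 10 without Sdc1_KO replicate 1 (704) and 11 without Sdc1_KO replicate 2 (672). With 1 library left in a group, that library is assumed to vary like the other groups. The 1 member higher in Sdc1_KO against Jhd2_KO became 3 in limma (15S rRNA, COX3 and Q0297, the last not in the edgeR fit), 0 when scaled to the members, and 0 to 3 with 1 library left out, 3 without Sdc1_KO replicate 2 and 0 without Jhd2_KO replicate 2; 0 to 1 were lower, 1 without Sdc1_KO replicate 1. Nuclear genes called in Jhd2_KO were 2 in DESeq2 and 0 to 5 with 1 library left out. Those called in Sdc1_KO ran from 24 (without WT replicate 1) to 42, and in Sdc1_mut from 20 (without WT replicate 2) to 37.

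The direction turned in 11 alternatives. Scaled to the members, Sdc1_KO against WT gave -0.14 for COX2, -0.17 for COX3, -0.85 for COB, -0.30 for 15S rRNA and -0.21 for 21S rRNA, and Jhd2_KO gave -0.23 for 21S rRNA. COB in Sdc1_KO was -0.019 in limma, and from -0.43 to 0.50 with 1 library left out, -0.43 without Sdc1_KO replicate 1 and -0.21 without WT replicate 2. COX2 in Sdc1_KO ran from -0.46 (without Sdc1_KO replicate 1) to 1.21, and OLI1 in Jhd2_KO from -0.027 (without WT replicate 1) to 2.57. The cause was not tested.

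The summed share averaged 0.33% in Sdc1_KO, 0.324% in Jhd2_KO and 0.198% in WT. As a share of the authors' FPKM it was 0.519% in Sdc1_KO, 0.522% in Jhd2_KO and 4.8e-05% in Sdc1_mut_Jhd2_KO. Without the rRNAs it was 0.253% in Jhd2_KO and 2.1e-05% in Sdc1_mut_Jhd2_KO, as fewer RNAs are summed. The ratio to WT of Sdc1_mut_Jhd2_KO was 0.000448, and 0.000141 without the rRNAs and 0.000175 in FPKM; that of Sdc1_mut ran from 6.9e-05 to 0.000421 with 1 library left out. Over all genes, 55.5% of calls in Sdc1_KO and 46.2% in Jhd2_KO were higher, against 45.04% and 28.6% in limma on FPKM.

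Replicate numbers did not pair the samples: over 15 pairs of groups the correlation of deviations ran from -0.14 to 0.18, with 4 over 0.1. With the replicate number as a block, 9 members were called higher in Sdc1_KO and 0 in Jhd2_KO, and no count of members or of listed nuclear genes moved by more than 1.5 times. Over all genes, Jhd2_KO calls were 164 with the block in place of 104. They were 42 in limma, 2 with only the compared groups, 1 when scaled to the members, and 5 to 704 with 1 library left out. Scaled to the members, 241 genes were called in Sdc1_KO against WT and 88 in Sdc1_KO against Jhd2_KO.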
